A study of Mus musculus with 37 samples.

Results

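The condensin and Smc5/6 subunits described here are the 10 genes Smc2, Smc4, Ncaph, Ncapd2, Ncapg, Ncaph2, Ncapd3, Ncapg2, Smc5 and Smc6. They were picked by symbol from a deposited table of 25239 gene rows, in which all 10 were present, and all 10 passed the filter on low counts together with 15036 other genes. The table holds 37 bulk paired-end RNA sequencing libraries of hearts from mouse embryos at stage E10.5. Fathers carried the germline driver Stra8-iCre and Nipbl Flox/+, so that their sperm held either Nipbl Flox, which the study counts as wild-type, or the null allele Nipbl FIN. Mothers were Isl1 Cre/+, in which a Cre recombinase gene occupies an Isl1 allele and leaves the animal haploinsufficient for Isl1. The offspring formed the groups wild_type (Nipbl +/+; Isl1 +/+, n = 10), Isl1_het (Isl1 +/-, n = 9), Nipbl_het (Nipbl +/-, n = 9) and double_het (Nipbl +/-; Isl1 +/-, n = 9). No embryo had Isl1 or Nipbl removed from both chromosomes. The labels do not say whether each library came from a separate embryo, so p-values measure the spread between these libraries, part of which may be technical. Each library also carries a set number (1, 2, 5, 6 or 7) in its description, and the labels do not spell out what it marks.

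Condensins are ring-shaped ATPases of the SMC family that fold and stiffen chromosomes for cell division. Smc2 and Smc4 form the ATPase pair of both condensins. Condensin I adds the kleisin Ncaph, which closes the ring, and the HEAT-repeat subunits Ncapd2 and Ncapg, and it reaches the chromosomes after the nuclear envelope breaks down. Condensin II adds the kleisin Ncaph2 and the HEAT-repeat subunits Ncapd3 and Ncapg2, and it is nuclear through interphase. Smc5 and Smc6 are the ATPases of another SMC complex that acts in DNA repair and in the resolution of replicated chromosomes. All are relatives of cohesin, the SMC ring whose loading depends on Nipbl, and the comparisons below ask how far their transcripts moved when a working copy of Nipbl, of Isl1 or of both was lost. In GRCm38 the ATPase genes of condensin lie far apart, Smc2 at chr4:52439243-52488260 and Smc4 at chr3:69004738-69034623 (plus strand). Condensin I genes are Ncaph at chr2:127103809-127133954, Ncapd2 at chr6:125168007-125191701 (minus strand) and Ncapg at chr5:45669919-45700546 (plus). Condensin II genes are Ncaph2 at chr15:89355719-89372826, Ncapd3 at chr9:27030175-27095315 and Ncapg2 at chr12:116405402-116463731 (plus), with Smc5 at chr19:23206451-23273897 (minus) and Smc6 at chr12:11265886-11319785 (plus) for Smc5/6. The embryonic heart at this stage is a growing organ with many dividing cells. In bulk hearts, fewer cells of a type and less RNA per cell cannot be told apart.

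Several condensin genes carry the cell cycle homology region (CHR), a short element of promoters that are active in G2 and mitosis, close to the transcription start. RefSeq windows of assembly GRCm38.p6, from 250 bases before to 50 bases after the start, were available for 9 of the 10 genes. TTTGAA or TTCGAA, on either strand, lay in the windows of 6 of the 9 genes (Smc2, Ncapd2, Ncapg, Ncapg2, Ncaph2 and Smc6), beside 19.2% of all 32851 mouse windows. In 3 of them the match, read on the coding strand, lay within 30 bases before the RefSeq start. TTCGAA, the match in Ncaph2, reads the same on both strands. These 30-base stretches are shown as the matches nearest before the RefSeq start, a distance that chose them. In Ncapd2 the match lies 123 bases before the RefSeq start, and in Smc2 and Smc6 the matches lie elsewhere in the window. Capitals mark the CHR match, which begins 30 bases before the RefSeq start in Ncapg (chr5:45669883-45669912, plus strand), 18 bases before it in Ncapg2 (chr12:116405406-116405435, plus strand) and 22 bases before it in Ncaph2 (chr15:89355685-89355714, plus strand).
Ncapg: ccgcgatagttgTTTGAAaactctggcgct
Ncapg2: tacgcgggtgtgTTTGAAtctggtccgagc
Ncaph2: cttctttacttcTTCGAAactgggcccgcc
CCAAT, on either strand, was found in the windows of Smc2, Ncapd2 and Ncapg, beside 37.4% of all windows. An E2F-type element (TTTCCCGC, TTTCGCGC, TTTGCCGC or TTTGGCGC, on either strand) was found in Ncapd2, Ncapg and Ncapg2, beside 2.26% of all windows. None of these letters occurred in the windows of Ncaph, Ncapd3 or Smc5. The RefSeq start of Smc5 lies 1298 bases from the start in the GENCODE M21 annotation, so its window may describe another start than the one used in these hearts. The RefSeq start lies 115 bases from the M21 start in Ncapd2 and 34 bases from it in Ncapg2. By the M21 coordinates the stretch shown for Ncapg2 lies inside the gene, and the Ncapd2 match lies nearer the start. A match is a description of the letters only.

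Total counts ranged from 23.4 to 51.0 M (mega-counts) per library, and each subunit had at least 544 counts in every library. Nipbl, the cohesin loader, had 60.0 ± 10.1 CPM (counts per 1000000, with library sizes scaled by edgeR's TMM factors, as for all CPM values here; SD, n = 10) in wild_type and 39.3 ± 13.8 CPM (n = 9) in Nipbl_het, a fitted log2 change of -0.74 ± 0.12 (SE). Of the 9 Nipbl_het libraries, 8 lay below every wild_type library, and the library labelled Nipbl_het replicate 2, at 72.4 CPM, lay inside the wild_type range of 47.6 to 78.8 CPM. That library also stood apart on the first principal component (114 against 21.0 for the next library), so the subunits' values in Nipbl_het and the tests by set number are given with and without it. In double_het, Nipbl had a log2 change of -0.82 ± 0.12 against wild_type, and 8 of 9 libraries lay below every wild_type library. The remaining double_het library lay inside the wild_type range, below the wild_type mean. Isl1, a transcription factor of cardiac progenitors, had 7.37 ± 2.24 CPM in wild_type and 6.28 ± 1.76 CPM in Isl1_het (adjusted p = 0.877 in the edgeR quasi-likelihood test), so its level does not check that label. In Nipbl_het, Isl1 was higher than in wild_type, with a log2 change of 0.79 ± 0.19 (adjusted p = 0.0252 in the same test). It was also called higher for Nipbl loss averaged over Isl1 genotypes, by 0.65. Markers of heart muscle summed to between 22890 and 36250 CPM in each library and none of the 6 was at 0. Embryonic red cell markers ranged from 484 to 105519 CPM in sum. With their mean log2 CPM as a covariate, 0 of 10 subunits passed in each of the 8 genotype contrasts.

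Transcript levels within the complexes were unequal. Divided by the exon length of each gene in GENCODE M21, the kleisin of condensin II, Ncaph2, was highest at 50.3 ± 6.32 CPM per kb (SD over 37 libraries). Smc4 followed at 41.6 ± 7.81 and Ncapd2 at 33.5 ± 5.20 CPM per kb. Smc2 had 19.3 ± 3.66 and Ncaph 15.9 ± 1.05 CPM per kb. Ncapg (8.10 ± 1.44), Smc6 (8.05 ± 1.06) and Smc5 (7.81 ± 1.89 CPM per kb) did not differ beyond their spread on this length. Lowest were the HEAT-repeat subunits of condensin II, Ncapg2 at 4.25 ± 0.827 and Ncapd3 at 3.81 ± 0.772 CPM per kb, which overlapped each other. With the longest coding transcript as the length, Ncaph moved above Smc2 (25.5 against 19.6 CPM per kb) and Smc6 above Ncapg (18.0 against 15.4), and the other ranks were as before. On that length Smc6 read 1.93 times Smc5, against 1.03 times on the exon length. Within condensin II, the kleisin read 11.8 times its partner Ncapg2 by exon length and 7.09 times by the longest coding transcript, and 13.2 and 11.7 times Ncapd3. Exons of Ncaph2 share 829 bases with Sco2 and 535 bases with Tymp on the opposite strand, and exons of Ncapg share 944 bases with Lcorl. Since the strand setting of the counting is not given in the sources used here, the levels of Ncaph2 and Ncapg are uncertain to that extent. Exons of Ncapd2 also hold the small RNA gene Scarna10, which shares 237 bases with them.

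None of the 10 subunits passed the test in any of the 8 genotype contrasts, and their 95% intervals reached from 0.730-fold to 1.28-fold. The edgeR quasi-likelihood test with the set number as a covariate called 0 of the 10 subunits in Isl1_het against wild_type, where 0% of all genes were called (886 of 15046 genes had an unadjusted p under 0.05, and DESeq2 called 11). It called 0 of 10 in Nipbl_het, against a background of 1.71% of genes, and 0 of 10 in double_het, against 2.6%. Without the library labelled Nipbl_het replicate 2 the backgrounds were 2.72% and 5.57%, again with 0 of 10 subunits in each. The same count was 0 of 10 for double_het against Isl1_het (background 0.957%), and 0 of 10 for double_het against Nipbl_het and for the interaction, where 0% of genes were called (1355 and 411 genes with an unadjusted p under 0.05, and 0 calls with DESeq2 in each). Averaged over the other genotype, 0 of 10 subunits were called for Nipbl loss (background 4.02%) and 0 of 10 for Isl1 loss (background 0.173%). A count of 0 among 10 genes is near each of these backgrounds. Unadjusted p-values under 0.05 occurred for 1 subunit in Nipbl_het and for 1 in the averaged Nipbl loss, Smc2 each time, and for none in the other 6 contrasts. Fitted log2 changes of the 10 subunits spanned -0.10 to 0.16 in Isl1_het, -0.19 to 0.08 in Nipbl_het and -0.12 to 0.07 in double_het. Across these 3 comparisons the 95% intervals reached from -0.36 (Smc2 in Nipbl_het, a 0.779-fold level) to 0.36 (Ncapg2 in Isl1_het, 1.28-fold). In other contrasts they reached lower, to -0.45 in the interaction (Ncapd3, 0.730-fold) and to -0.40 in double_het against Nipbl_het (Smc5, 0.759-fold).

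**Figure D1:**
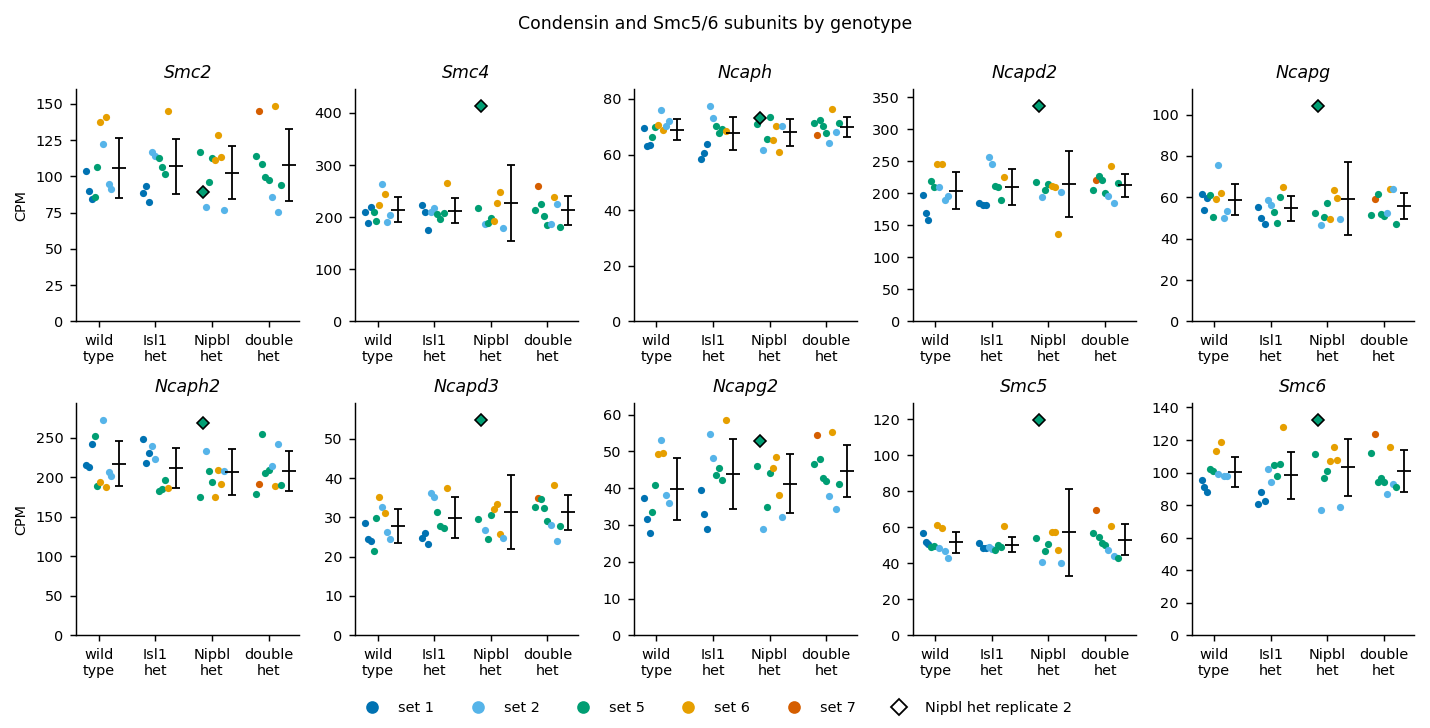
Levels (CPM) of the 10 subunits in each of 37 libraries by genotype; dots are libraries coloured by set number, bars are mean ± SD, and the y axis starts at 0. The genotypes overlap for every subunit, and the library labelled Nipbl_het replicate 2 (diamond) lies far above the others for Smc4, Ncapg, Ncapd2, Ncapd3 and Smc5.

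With all 37 libraries and the set number in the model, Smc2, the ATPase shared by both condensins, came closest to a genotype difference. Its level ran from 84.7 CPM through a median of 99.3 to 141 CPM in wild_type and from 82.1 through 106 to 145 CPM in Isl1_het. In Nipbl_het it ran from 76.8 through 112 to 129 CPM, and in double_het from 75.7 through 99.8 to 148 CPM. The ranges overlapped almost completely. Of the 9 Nipbl_het libraries 2 lay below and 0 above all wild_type libraries, and of the 9 double_het libraries 1 lay below and 2 above. Once the set number was in the model, Smc2 had a log2 change of -0.19 ± 0.08 (SE) in Nipbl_het (p = 0.0278 and adjusted p = 0.262 with edgeR) and of -0.17 ± 0.06 for Nipbl loss averaged over both Isl1 genotypes (p = 0.00996, adjusted p = 0.140). Without the library labelled Nipbl_het replicate 2 these were -0.18 ± 0.08 (adjusted p = 0.279) and -0.17 ± 0.06 (adjusted p = 0.0940).

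The sets disagreed on Smc2. In set 2 the 4 libraries with Nipbl loss had 75.7 to 86.1 CPM, below the 3 wild_type (91.4 to 122 CPM) and the 2 Isl1_het libraries (114 to 117 CPM), a mean difference of -0.45 in log2 CPM averaged over Isl1 genotypes. Of these 4, Nipbl_het replicate 9 had 354 CPM in sum of the liver and gut endoderm markers Afp, Alb, Apoa1 and Ttr, against at most 18.2 CPM in any other library, and without it the set 2 difference was -0.44. Of these markers 3 were tested, and 0 passed in Nipbl_het (median log2 change 2.73). Set 5 gave 0.02 (0.06 when the library that stood apart was left out), with Nipbl_het at 89.1 to 116 CPM and wild_type at 86.0 to 106 CPM. Set 6 gave -0.11, with Nipbl_het at 112 to 129 CPM, wild_type at 138 to 141 CPM and the single double_het library at 148 CPM. For the averaged Nipbl loss, Smc2 passed the threshold without set 5 (-0.32, adjusted p = 0.0426), without wild_type replicate 4 (-0.21, adjusted p = 0.0486) and with 2 surrogate variables (-0.16, adjusted p = 0.0487), and it did not pass in the other alternatives run. The log2 change of Smc2 in double_het against wild_type was -0.11 ± 0.09 and in Isl1_het 0.04 ± 0.08, and the interaction of both losses was 0.03 ± 0.11.

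Smc4, the ATPase partner of Smc2, did not pass in any contrast. Its level ran from 188 through a median of 209.8 to 263 CPM in wild_type, from 175 through 209.5 to 266 CPM in Isl1_het, from 179 through 198 to 413 CPM in Nipbl_het and from 180.5 through 213 to 261 CPM in double_het. The groups overlapped apart from the value of 413 CPM, which belongs to the library labelled Nipbl_het replicate 2. The log2 change of Smc4 was 0.04 ± 0.12 in Nipbl_het with that library and -0.11 ± 0.07 without it (adjusted p = 0.899 and 0.460 with edgeR). For Nipbl loss averaged over Isl1 genotypes, sets 2, 5 and 6 gave mean differences of -0.15, 0.12 and -0.11 in log2 CPM, and the set 5 value was -0.01 when the 413 CPM library was left out. Whether Smc2 and Smc4 differed in their change was not tested.

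Among the condensin I subunits, Ncaph was the steadiest transcript of the 10. It ran from 63.0 through a median of 69.8 to 75.9 CPM in wild_type and from 60.9 through 70.4 to 73.4 CPM in Nipbl_het, and its coefficient of variation over the 37 libraries was 6.57%, beside a median of 20.4% over all genes tested. The 95% interval of its log2 change was correspondingly narrow, from -0.17 to 0.03 in Nipbl_het (from -0.17 to 0.01 without the library labelled Nipbl_het replicate 2) and from -0.13 to 0.07 in double_het. Ncapd2 ran from 159 through 204.0 to 246 CPM in wild_type and from 137 through 210.5 to 336 CPM in Nipbl_het, both the lowest and the highest value of the gene lying in that group. Its log2 change was -0.03 ± 0.10 in Nipbl_het, or -0.13 ± 0.08 without the library that stood apart, and -0.05 ± 0.10 in double_het. Ncapg ran from 49.9 through 59.5 to 75.4 CPM in wild_type, from 46.7 through 52.5 to 104 CPM in Nipbl_het and from 47.1 through 52.3 to 64.2 CPM in double_het. Its log2 change was -0.02 ± 0.12 in Nipbl_het, and -0.17 ± 0.08 without that library (p = 0.0366, adjusted p = 0.291 with edgeR).

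The condensin II subunits did not pass in any contrast. Ncaph2 ran from 188 through a median of 210.0 to 272 CPM in wild_type and from 175 through 207 to 269 CPM in Nipbl_het, with a log2 change of 0.00 ± 0.08, or -0.05 ± 0.07 without the library that stood apart. Ncapd3 ran from 21.5 through 27.4 to 35.2 CPM in wild_type and from 24.5 through 29.7 to 54.8 CPM in Nipbl_het, with a log2 change of 0.07 ± 0.12, which was -0.07 ± 0.08 without that library. Ncapg2 had -0.12 ± 0.10 in Nipbl_het and -0.17 ± 0.09 without it (adjusted p = 0.632 and 0.412 with edgeR). Ncapg2 had the largest change of any subunit in Isl1_het, from 27.8 through 37.6 to 53.2 CPM in wild_type to 28.9 through 43.6 to 58.5 CPM. That log2 change of 0.16 ± 0.10 did not pass (p = 0.108, adjusted p = 0.841 with edgeR), and 2 of 9 Isl1_het libraries lay above all wild_type libraries. Averaged over Nipbl genotypes, Ncapg2 had a log2 difference of 0.14 ± 0.07 with Isl1 loss (p = 0.0547, adjusted p = 0.415). In sets 1, 2, 5 and 6 the Isl1_het mean of Ncapg2 exceeded the wild_type mean by 0.07, 0.30, 0.24 and 0.24 in log2 CPM, set 6 holding 1 Isl1_het library (replicate 9). Ncapg2 is described for its size of change, so these signs are no independent support.

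The Smc5/6 ATPases did not pass either. Smc5 ran from 43.0 through a median of 50.1 to 61.0 CPM in wild_type, from 47.4 through 49.0 to 60.8 CPM in Isl1_het, from 40.0 through 50.7 to 119 CPM in Nipbl_het and from 42.9 through 51.5 to 69.7 CPM in double_het. The value of 119 CPM came from the library labelled Nipbl_het replicate 2, whose Smc5 level was 1.72 times the next highest of any library. With it the log2 change of Smc5 in Nipbl_het was 0.08 ± 0.13, and without it -0.11 ± 0.05 (p = 0.0383, adjusted p = 0.298 with edgeR). Smc6 ran from 88.0 through 98.5 to 119 CPM in wild_type and from 77.0 through 107 to 132 CPM in Nipbl_het, with a log2 change of -0.09 ± 0.06. In double_het it ran from 87.0 through 94.3 to 124 CPM, with a log2 change of -0.12 ± 0.07 (p = 0.0812, adjusted p = 0.526). For Nipbl loss averaged over Isl1 genotypes, Smc6 had -0.09 ± 0.05 (adjusted p = 0.413) and passed only with 2 surrogate variables (-0.12, adjusted p = 0.0301).

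The signs of the subunits' changes in Nipbl_het moved with the library labelled Nipbl_het replicate 2 and with the model. With that library, 6 of 10 subunits had a negative log2 change in Nipbl_het against wild_type, with a median of -0.03 beside 0.01 over all genes tested. Without it, 10 of 10 were negative, with a median of -0.12 beside -0.01 over all genes, of which 53.7% were negative. Still 0 of 10 passed, and 4 had an unadjusted p under 0.05 with edgeR, namely Smc2, Ncapg, Smc5 and Smc6. Of these, Smc6 had the smallest p, with a log2 change of -0.14 ± 0.05 (adjusted p = 0.141). In double_het against wild_type, where that library enters only through the shared spread and the set term, 8 of 10 were negative with it and 8 of 10 without it, with medians of -0.05 and -0.04. For the averaged Nipbl loss 7 of 10 were negative with it and 10 of 10 without it (medians -0.02 and -0.08). For double_het against Nipbl_het the counts were 6 and 0 (medians -0.01 and 0.07), and for the interaction 6 and 0 (medians -0.02 and 0.06). Without the set term 3 of 10 were negative in double_het (median 0.02) and 3 of 10 in Nipbl_het (median 0.05), and with the replicate number as a block in its place 4 of 10 in each (medians 0.01 and 0.03). With 2 surrogate variables 10 of 10 were negative in Nipbl_het (median -0.13, 8 with an unadjusted p under 0.05) and 8 of 10 in double_het (median -0.09). Without set 5, which holds the library labelled Nipbl_het replicate 2, 10 of 10 were negative in Nipbl_het (median -0.21, 6 with an unadjusted p under 0.05) and 9 of 10 in double_het (median -0.06). Without set 1, 2 or 6, 7, 4 and 5 of 10 were negative in Nipbl_het (medians -0.03, 0.02 and 0.00) and 8, 7 and 9 of 10 in double_het. None of the 10 passed in either contrast in any of these fits. Since Nipbl_het and double_het are compared with the same wild_type libraries, their signs are not independent of each other. Epicardial markers (Wt1, Tbx18, Upk3b and Upk1b) moved in the same contrasts. Their sum ran from 214 through a median of 323 to 345 CPM in wild_type, from 334 through 406 to 465 CPM in Nipbl_het and from 412 through 491 to 534 CPM in double_het, and none was at 0 in any library. With edgeR 1 of 4 rose in Nipbl_het (Wt1) and 4 of 4 in double_het, with and without the library labelled Nipbl_het replicate 2, and 3 of 4 for the averaged Nipbl loss (4 of 4 without it). The shares of all genes called in these contrasts were 1.71%, 2.6% and 4.02% with all libraries. Of 3 neural markers tested, 0 passed in Nipbl_het and 1 rose for the averaged Nipbl loss (Tubb3, by 0.49). Without that library 1 of 3 neural and 1 of 5 endothelial markers passed in Nipbl_het (0 of 5 endothelial with it). The part of these markers in the values of the subunits was not tested.

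**Figure D2:**
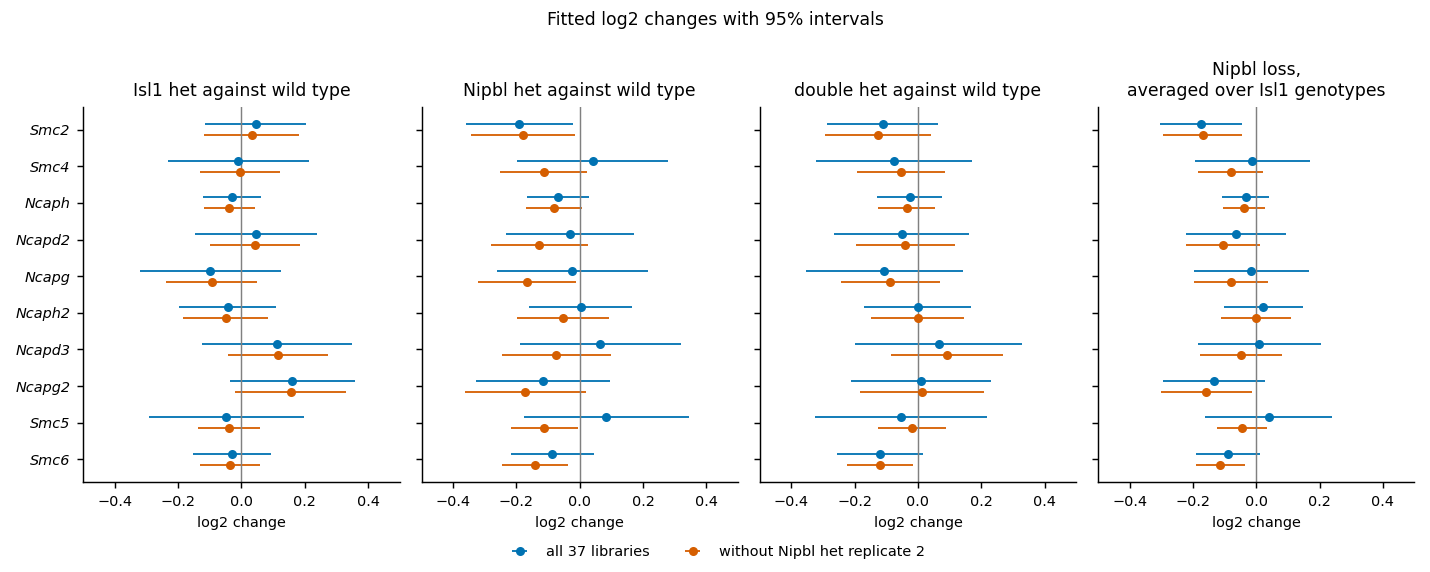
Fitted log2 changes of the 10 subunits (points) with 95% intervals (lines) in 4 contrasts, from all 37 libraries (blue) and without the library labelled Nipbl_het replicate 2 (orange). Fitted values from all 37 libraries lie between -0.19 (Smc2 in Nipbl_het) and 0.16 (Ncapg2 in Isl1_het), and without that library all 10 values in Nipbl_het against wild_type lie below 0.

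Of the genes that work with these complexes, none of the partner lists had a member past the threshold in a genotype contrast. A list of condensin partners and regulators held 11 genes, such as Top2a, the topoisomerase that untangles sister DNA, and Mki67, which coats mitotic chromosomes. Of these, 0 of 11 passed in each contrast. In Nipbl_het all 11 log2 changes were negative, from -0.17 (Mki67) to -0.01 (Aurkb, the kinase of the chromosomal passenger complex), with a median of -0.09. In double_het 4 of the 11 were positive and the median was -0.03. Of 7 partners of Smc5 and Smc6 (the Nsmce genes, Eid3, Slf1 and Slf2), 6 were tested and 0 passed in each contrast, with log2 changes from -0.12 (Nsmce1) to 0.08 (Slf2, which recruits the complex to damaged DNA) in Nipbl_het. A list of 17 mitotic genes, which shares 5 genes with the condensin partners and 0 with the 10 subunits, gave 0 calls in each contrast, with medians of -0.09 in Nipbl_het and -0.05 in double_het. Of 12 replication genes, Mcm7, a subunit of the replicative helicase, fell by 0.20 ± 0.05 on the log2 scale in Nipbl_het (adjusted p = 0.0427 with edgeR), and by 0.18 ± 0.05 without the library labelled Nipbl_het replicate 2 (adjusted p = 0.0404). The other 11 did not pass, and all 12 had negative log2 changes with a median of -0.16, or 10 of 12 and -0.11 without that library. Mcm7 also passed for the averaged Nipbl loss (-0.14 ± 0.04, adjusted p = 0.0492 with edgeR). Of all genes, 1.71% were called in Nipbl_het (2.72% without that library) and 4.02% for the averaged Nipbl loss. The core cohesin genes gave 0 calls of 5 in Nipbl_het, and for the averaged Nipbl loss 1 of 5 rose, Stag1, by 0.25 ± 0.07 (adjusted p = 0.0311), or by 0.21 ± 0.05 without that library (adjusted p = 0.00261). Without it Stag1 also rose in double_het by 0.25 ± 0.06 against wild_type (adjusted p = 0.0105, with 5.57% of all genes called). Also without it, Stag1 rose in double_het by 0.23 ± 0.06 against Isl1_het (adjusted p = 0.0313), and Smc1a fell by 0.21 ± 0.06 in Nipbl_het (adjusted p = 0.049995). Whether the subunits differed from these lists was not tested.

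More subunits passed the test by set number than in any genotype contrast. The edgeR test of the set terms called 3 of 10 subunits, Smc2 (adjusted p = 2.4e-05), Smc6 (1.3e-04) and Ncapg2 (0.00145), against a background of 38.2% of all genes, so the count is not above that of genes in general. Without the library labelled Nipbl_het replicate 2 the same test called 9 of 10, all but Ncapg, against a background of 55.7%. Without wild_type replicate 1 or wild_type replicate 4 it called 5 of 10, against 37.9% and 44.8%. The set number is partly tied to genotype, since set 1 held only wild_type and Isl1_het libraries and set 7 only double_het replicate 2.

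Smc2 had the highest F for the set terms with all 37 libraries (15.5), and without the library labelled Nipbl_het replicate 2 Smc6 (19.3) and Smc5 (16.5) lay above it (15.9). The mean of Smc2 was 90.5 ± 7.76 CPM (SD, n = 6) in set 1, 95.2 ± 18.3 (n = 9) in set 2, 103 ± 9.60 (n = 14) in set 5 and 132 ± 14.9 (n = 7) in set 6, and the library of set 7 had 145 CPM. Every library of set 6, from 112 CPM upward, lay above every library of set 1, which ended at 104 CPM. The difference was also present within wild_type alone, where the 2 libraries of set 6 had 138 and 141 CPM and the 8 of the other sets 84.7 to 122 CPM. These libraries are part of the set test, so they are no independent support. The share of all genes without overlap between sets 1 and 6 was not counted, and 38.2% of all genes were called by set. With genotype in the model, set 6 exceeded set 2 by 0.52 ± 0.09 (SE) and set 1 by 0.66 ± 0.10 in log2 units.

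Smc6 followed the same order, with 87.6 ± 5.35 CPM in set 1, 91.9 ± 9.06 in set 2, 103 ± 10.52 in set 5 and 115 ± 7.03 in set 6. Its libraries ended at 95.3 CPM in set 1 and began at 107 CPM in set 6, without overlap. For this gap and those below, the share over all genes was likewise not counted. Ncapg2 had 33.0 ± 4.59, 40.4 ± 9.36, 43.1 ± 4.93 and 49.2 ± 6.60 CPM in these sets, and here sets 1 and 6 overlapped between 38.2 and 39.4 CPM. Its set 6 minus set 1 difference of 0.68 ± 0.13 in log2 units was close to that of Smc2. Smc5 had a set 6 minus set 2 difference of 0.33 ± 0.13 in log2 units with all libraries and of 0.36 ± 0.05 without the library that stood apart, and it passed the set test in the second case only (adjusted p = 5.8e-06). Ncaph2 had the opposite direction, with 228 ± 14.8 CPM in set 1 and 190.3 ± 10.2 CPM in set 6, and did not pass the set test with all 37 libraries (adjusted p = 0.0617), but passed without Nipbl_het replicate 2 (0.0117). Its range of 213 to 248 CPM in set 1 did not overlap that of 175 to 209 CPM in set 6. Ncapg had the lowest F for the set terms (adjusted p = 0.897), with a set 6 minus set 2 difference of 0.09 ± 0.12, and that difference was smaller still for Ncapd2 (0.07 ± 0.10) and Ncaph (-0.03 ± 0.05). The red cell marker list moved with the set number as well, with 6 of 6 tested genes called and median sums of 12629, 23540, 4901 and 15191 CPM in sets 1, 2, 5 and 6. With the red cell list as a covariate the set test called 4 of 10 subunits, Smc2, Smc6, Ncapg2 and Ncaph2 (adjusted p = 0.0403 with edgeR), against a background of 29.8%. Of the heart muscle markers 4 of 6 were called by set, and their sum ran from 29327 to 36250 CPM in set 1 and from 22890 to 27631 CPM in set 6, without overlap. Of the markers of the epicardium, the outer cell layer of the heart, 3 of 4 were called, and their sum ran from 214 through a median of 258 to 436 CPM in set 1 and from 318 through 398 to 465 CPM in set 6. Of 17 mitotic genes 5 were called with all libraries (background 38.2%) and 9 without the library labelled Nipbl_het replicate 2 (background 55.7%). Beyond the fit with the red cell covariate, the part of red cells in the set differences of the subunits was not tested. Nor was that of the muscle, epicardial and mitotic genes.

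**Figure D3:**
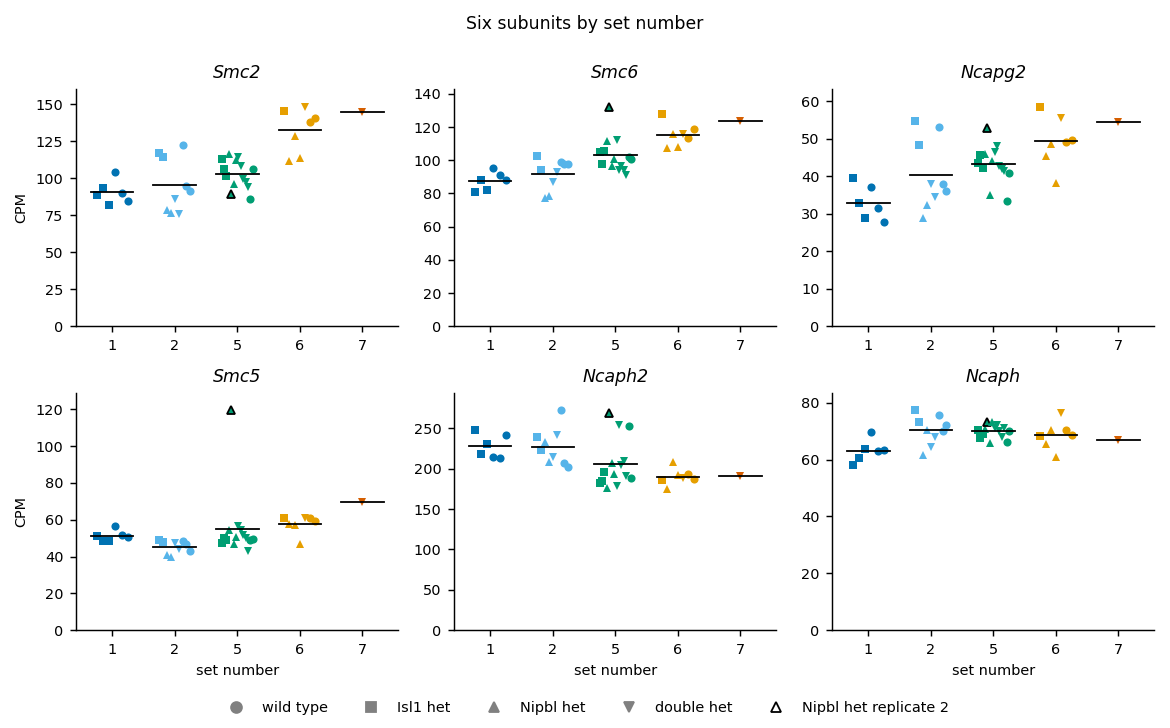
Levels (CPM) of 6 subunits by set number; symbols give the genotype of each library, horizontal lines are set means, and the y axis starts at 0. Smc2, Smc6 and Ncapg2 are higher in set 6 than in set 1, Ncaph2 is lower, and the library labelled Nipbl_het replicate 2 (outlined) is the highest value of Smc5 and Smc6.

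Over the 37 libraries most pairs of subunits varied together, and the pairs with Ncaph2 were mixed. Of 45 pairs, 40 had a positive correlation of log2 CPM and the median Pearson's r was 0.55. A permutation test with 100000 resamples gave an adjusted p under 0.05, over the 45 pairs, to 36, all with an absolute r of at least 0.35. The same size of r was reached by 38.3% of all pairs of genes tested, of which 49.9% were positive with a median r near 0. With genotype and set means removed, 44 of the 45 subunit pairs were positive with a median of 0.60, and 35 reached that size, beside 41.4% of all pairs. Values with these means removed still include the library labelled Nipbl_het replicate 2. Leaving it out, with the means kept, 38 of the 45 were positive with a median of 0.48. Then 32 reached that size, beside 35.9% of all pairs. Pairs share genes and libraries, so these shares are a description. The permutations shuffled all 37 libraries without regard to set or genotype. Their p-values therefore do not separate differences shared between sets from variation within sets. The pair with the highest r over all 37 libraries joined both condensins' ATPase Smc4 with the condensin I subunit Ncapg, with r = 0.91 and Spearman's rho = 0.85 (permutation p = 1e-05 for each, the smallest these permutations can give, adjusted p = 3.8e-05 and 5.6e-05). Without the 2 libraries farthest in Smc4, r was 0.82, as it was without the library labelled Nipbl_het replicate 2, and within sets 1, 2, 5 and 6 it was 0.67, 0.95, 0.95 and 0.86. It was 0.93 with genotype and set means removed. Ncapd3 and Ncapg2, the HEAT-repeat pair of condensin II, had the highest rho (0.91) and the highest r without that library (0.89), with r = 0.83 over all 37 and with the same permutation p-values, 0.90 without the 2 farthest libraries, and 0.65, 0.87, 0.85 and 0.94 within those sets, with 0.82 after genotype and set means were removed. Smc5 and Smc6 had r = 0.72 and rho = 0.63 (permutation p = 1e-05 and 4e-05, adjusted 3.8e-05 and 1.6e-04), 0.71 without the 2 farthest libraries, 0.57 to 0.83 within sets, and 0.77 after those means were removed.

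The ATPase partners Smc2 and Smc4 were a looser pair, with r = 0.37 and rho = 0.55 (permutation p = 0.0211 and 5.8e-04, adjusted 0.0279 and 0.00119). Their r was 0.30 without the 2 libraries farthest in Smc2 and 0.68 without the library labelled Nipbl_het replicate 2, which was high in Smc4 (413 CPM) and not in Smc2 (89.1 CPM). Within sets it was 0.35, 0.63, -0.28 and 0.56, set 5, which holds that library, being the negative value, and with genotype and set means removed it was 0.17. Smc2 and Ncapg2 had r = 0.83 and rho = 0.86 (permutation p = 1e-05 for each, adjusted 3.8e-05 and 5.6e-05), with 0.80 without the 2 farthest libraries 0.65, 0.95, 0.42 and 0.86 within the sets and 0.76 after those means were removed. Ncaph2 went against Smc2, with r = -0.48 and rho = -0.52 (permutation p = 0.00270 and 0.00105, adjusted 0.00486 and 0.00205) and -0.43 without the 2 farthest libraries. That relation did not hold in every set, r being negative in sets 1 and 5 (-0.61 and -0.68) and positive in sets 2 and 6 (0.44 and 0.21), and it was -0.12 with genotype and set means removed. With Smc6, r of Ncaph2 was -0.37 (rho = -0.50, permutation p = 0.0251 and 0.00179, adjusted 0.0323 and 0.00310), and 0.16 after those means were removed. With Ncapg it was positive, with r = 0.46 and rho = 0.27 (permutation p = 0.00412 and 0.112, adjusted 0.00687 and 0.133), 0.17 without the 2 libraries farthest in Ncapg, and 0.71 after those means were removed.

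**Figure D4:**
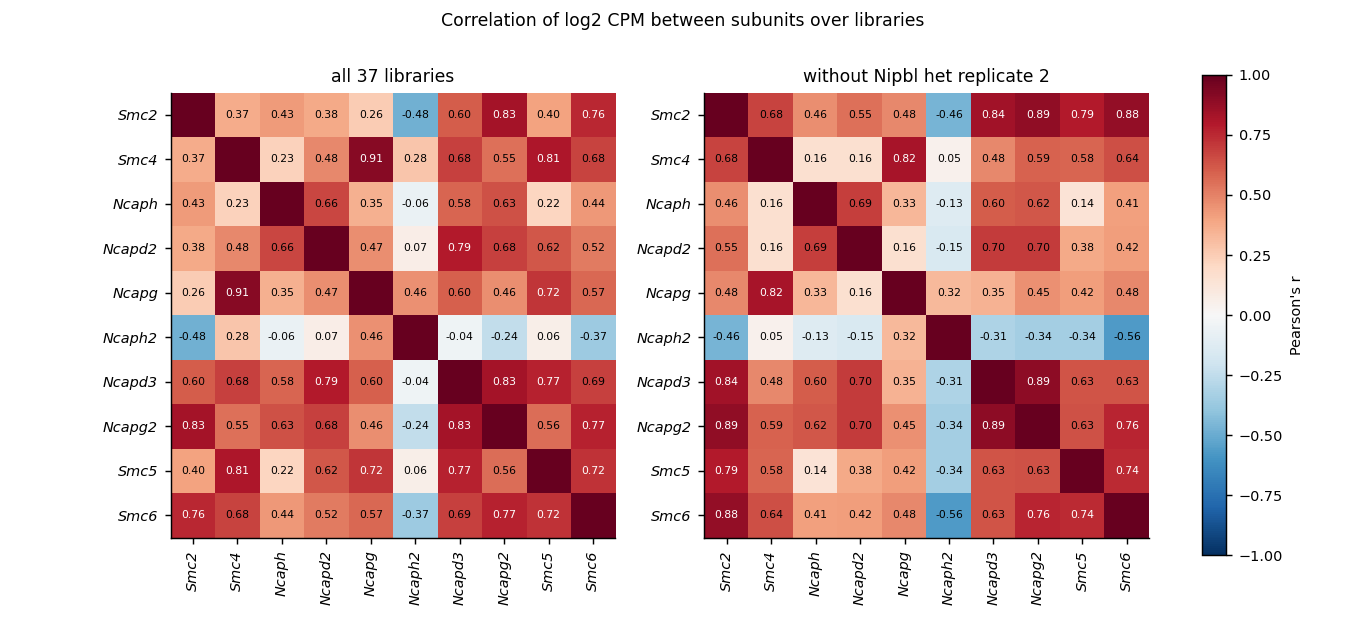
Pearson's r of log2 CPM for each pair of subunits over all 37 libraries (left) and without the library labelled Nipbl_het replicate 2 (right); red is positive, blue is negative. Smc4 with Ncapg (0.91 and 0.82) and Ncapd3 with Ncapg2 (0.83 and 0.89) are dark red in both panels, and the row of Ncaph2 is pale or blue apart from Ncapg (0.46 and 0.32).

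The level of mitotic transcripts correlated with 9 of the 10 subunits. The mean log2 CPM of the 17 mitotic genes was compared with each subunit over 37 libraries, a family of 10 relations, with permutation tests of 100000 resamples. These tests too shuffled the libraries without regard to set or genotype. The 9 that passed had r of 0.41 or above, a level reached by 6.55% of the 15029 genes outside the mitotic list, whose median r was near 0. With genotype and set means removed, 10 of 10 subunits and 10.8% of these genes reached it. The highest Pearson's r was that of Ncapg at 0.64 (rho = 0.74, permutation p = 3e-05 and 1e-05, adjusted 1.3e-04 and 5e-05), followed by Ncapg2 at 0.63 (rho = 0.66, permutation p = 3e-05 and 2e-05, adjusted 1.3e-04 and 6.7e-05) and Smc2 at 0.61 (rho = 0.60, permutation p = 4e-05 and 1.6e-04, adjusted 1.3e-04 and 3.2e-04). Without the 2 libraries farthest from the median of the list, wild_type replicate 7 and Isl1_het replicate 9, these r values were 0.57, 0.57 and 0.56. Within sets 1, 2, 5 and 6, r was 0.91, 0.85, 0.55 and 0.65 for Ncapg, 0.02, 0.84, 0.62 and 0.90 for Ncapg2, and 0.44, 0.83, 0.28 and 0.97 for Smc2, with only 6 and 7 libraries in sets 1 and 6.

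Ncapd3 (0.60), Ncaph (0.58), Smc4 (0.57), Ncapd2 (0.48), Smc6 (0.46) and Smc5 (0.41) also passed, with adjusted permutation p-values from 2.8e-04 to 0.0113 for r and from 5e-05 to 0.00371 for rho. All 6 kept a positive r without the 2 farthest libraries, from 0.46 to 0.60, and within each set apart from Ncapd2 in set 1 (-0.06). Ncaph2 did not pass, with r = 0.23 and rho = 0.08 (permutation p = 0.175 and 0.639, both being the adjusted values too). After genotype and set means were removed, r of Ncaph2 was 0.46, and that of the other 9 subunits lay between 0.49 (Smc5) and 0.71 (Ncapg2). The mean log2 CPM of the mitotic list lay between 7.02 and 7.08 in each set, a mean that can hide genes moving in opposite directions.

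**Figure D5:**
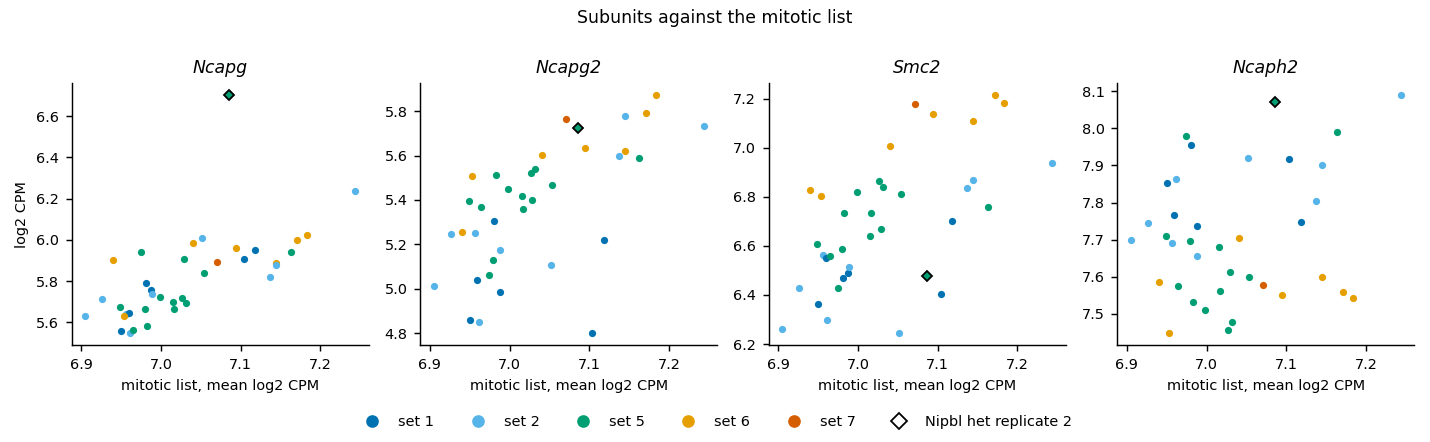
Log2 CPM of 4 subunits against the mean log2 CPM of 17 mitotic genes, each dot a library coloured by set number. Ncapg, Ncapg2 and Smc2 rise with the list (r = 0.64, 0.63 and 0.61), and Ncaph2 does not pass (r = 0.23).

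The genes whose pattern was most like that of a subunit, by Pearson's r over 37 libraries after genotype and set means were fitted out, are given as a description. For Smc2 they were Rbl1 (0.88), Stk4 (0.88) and Elf1 (0.85), and without the library labelled Nipbl_het replicate 2 Kif11, a mitotic motor protein (0.90), Elf1 (0.89) and the condensin II subunit Ncapg2 (0.89). For Ncapg they were its complex partner Smc4 (0.93), Odc1 (0.92) and Mpp6 (0.91), and without that library Urod (0.87), Fen1 (0.86) and Rrm1 (0.86), the last being a subunit of ribonucleotide reductase. For Ncapd3 they were Ranbp2 (0.95), Fbxo38 (0.94) and Evi5 (0.94), and without it Ubxn2a (0.93), Topbp1 (0.93) and Iqgap2 (0.92). For Smc5 they were Sf3b1 (0.97), Canx (0.97) and Gna13 (0.97), and without it they included Ipo7 (0.87) and Rfwd3 (0.85). Elf1, near Smc2, is the only one of these 4 lists' genes named both with and without that library. In the lists of the other subunits, named here after their values were seen, Srp72 recurred for Smc4, Trappc11 for Ncaph, Kif11 and Wdr26 for Ncapg2, Ftl1 for Ncaph2 and Nedd1 for Smc6, and none for Ncapd2.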

How the data were processed

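The authors deposited 1 table of raw read counts per gene for 37 libraries of E10.5 hearts, made with a NEBNext Ultra II RNA kit per the labels' protocols. STAR, featureCounts, GRCm38 and mm10 are named, without versions, in the submitters' processing notes, and the annotation and strand setting are not given in the sources used here. After filterByExpr by genotype (minimum count 10, minimum total 15) and TMM scaling, 1 edgeR quasi-likelihood model (edgeR 4.0.16, R 4.3.3) with terms for genotype and set covered all libraries. Set 7 holds only double_het replicate 2, which its term fits exactly, so fitted double_het differences rest on 8 libraries. Tests were two-sided, with Benjamini-Hochberg adjustment over 15046 genes and a threshold of 0.05. CPM values are counts per 1000000 of the TMM-scaled library size over the genes kept, and log2 CPM added a prior count of 2. Standard errors came from the F statistic. The 10 genes and the gene lists were chosen with earlier results of these data known. Named genes were the 10 subunits, Nipbl and Isl1, list genes past the threshold or at the end of a list's range, and the 3 nearest genes for Smc2, Ncapg, Ncapd3 and Smc5. Members that define a short list were also named. So were nearest genes of the other subunits that recurred without Nipbl_het replicate 2, after their values were seen. Pair correlations, correlations over all genes, the second gene length, the set test with the red cell list, lists, within-set differences and likeness without Nipbl_het replicate 2, and set 2 without Nipbl_het replicate 9 were chosen after seeing the data. Alternatives were no set term, the replicate number as a block, DESeq2 1.42.0, DESeq2 size factors, no filter, a minimum of 10 counts per library, 2 surrogate variables (sva 3.50.0), the red cell list as a covariate, and each set or library left out. The model was run on simulated counts without set differences and with changes larger than those fitted for the subunits. That run does not show how the model treats set differences or smaller changes. No pair of libraries of a genotype, of 153 compared, agreed within sampling noise. Duplicate reads could not be told from separate molecules. A gene that the rule for most alike patterns also names is not reported here.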

Additional observations from a re-analysis of the deposited data

Results flagged for a closer look

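Of the 40 combinations of subunit and genotype, 7 had a library whose gap to the next exceeded Dixon's 95% critical value, a rule that chance meets in about 1 in 20 groups. Of these, 5 belong to the library labelled Nipbl_het replicate 2, which had 413 CPM of Smc4 (next 248), 336 CPM of Ncapd2 (next 218), 104 CPM of Ncapg (next 63.3), 54.8 CPM of Ncapd3 (next 33.4) and 119 CPM of Smc5 (next 57.5). In the same library Smc2, at 89.1 CPM, was not high, and the 12 replication genes had the lowest summed level of any library at 1442 CPM. The other 2 were Ncapg in wild_type replicate 7, at 75.4 CPM (next 62.1), and Smc5 in Isl1_het replicate 9, at 60.8 CPM (next 51.1). These are the libraries farthest from the median of the mitotic list. No cause of these values was tested.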

How the results depend on the processing

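The count of subunits past the threshold stayed at 0 in 7 of the 8 genotype contrasts under every alternative run. For Nipbl loss averaged over Isl1 genotypes it was 2 with 2 surrogate variables and 1 without set 5, and 0 to 1 over the single libraries left out. For the set number it was 3 to 9 over the libraries left out (5 without wild_type replicate 1 or 4, 9 without Nipbl_het replicate 2) and 3 to 4 under the other alternatives; the cause was not tested. No called value changed sign. The sign of subunits that did not pass was not stable: it changed in 167 of 960 values under 12 other alternatives and in 207 of 2960 with a library left out. Genes past the threshold ranged from 31 (without set 2) to 1332 (2 surrogate variables) in Nipbl_het and from 67 (without set 5) to 1779 in double_het, against 258 and 391, and were 410 and 839 without Nipbl_het replicate 2. The replicate number as a block in place of the set number gave 0 subunits past the threshold and 355 genes in Nipbl_het, 610 in double_het. Same-numbered libraries of different genotypes had deviations correlated from -0.45 to 0.55 (median 0.03, 54 pairs). Differently numbered libraries were not compared in this way, so whether the numbers pair the libraries was not tested. The lowest count of a subunit in any library was 544, and depth was not varied.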
